A study of Mus musculus with 7 samples.

Results

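Tetraspanins are small membrane proteins that cross the membrane repeatedly, bind one another and nearby integrins, immunoglobulin-type receptors and proteases, and so gather them into patches of the cell surface. The 10 genes described here, Cd9, Cd37, Cd53, Cd63, Cd81, Cd82, Cd151, Tspan8, Tspan17 and Tspan33, were taken by name from the deposited table of 23038 genes. They were chosen with earlier results of these data in view, and Tspan8 and Tspan17 were selected on the RPKM of both groups, so the differences between the groups are given as descriptions. The table holds 21 other members of the family, which serve as the comparison.

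The cells were haematopoietic stem cells (HSCs), the cells that maintain all blood lineages, sorted from adult hindlimb marrow of C57BL/6 mice as lineage-negative, Sca1+, cKit+, CD150+, CD48- cells, 150 cells per library. In one group of 4 libraries (Mx1-cre; Mettl3fl/fl, called mutant below) Cre recombinase deletes floxed Mettl3, which encodes the catalytic subunit of the enzyme that writes N6-methyladenosine (m6A) into mRNA. The other group of 3 libraries came from Cre-negative littermates, and the labels do not say whether these carried the floxed allele. Every animal of both groups received 5 intraperitoneal doses of 10 µg pIpC on alternate days and was killed 10 days after the last dose; the Mx1 promoter answers to interferon and is active in many cell types besides HSCs. Libraries were made by Smart-seq2 from total RNA.

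Each gene has 1 deposited value per group, in RPKM (reads per kilobase of gene model and library size), so levels can be compared between genes, but the spread between animals is unknown and no difference below has a replicate check or a test. Mettl3 had 49.8 RPKM in controls against 9.60 in mutants, so the targeted transcript matched the labels. The HSC gate genes Kit, Ly6a (Sca1) and Slamf1 (CD150) had 67.4, 152 and 25.9 RPKM in controls and 39.9, 167 and 27.1 RPKM in mutants, whereas Cd48, which the gate excludes, had 5.33 and 4.04 RPKM. Platelets were not sampled; their genes are read here only in HSCs. In a bulk library, fewer cells of a type and less RNA per cell cannot be told apart.

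Tetraspanins are known in this lineage from several sides. CD9 and CD63 are platelet proteins, CD9 at the surface and CD63 in granules that reach the surface on activation. CD82 and CD9 are surface proteins of HSCs, CD81 and CD37 are best known from B lymphocytes, and TSPAN17 and TSPAN33 belong to the TspanC8 subgroup, whose members escort the protease ADAM10 to the surface.

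The promoter windows of the 3 genes that lay farthest apart between the groups are printed first, as the sequence around an annotated start of each gene. Which start was used in these cells was not measured. The Tspan8 and Tspan17 windows lie inside the gene spans given below, downstream of the first base of the span. Each runs 5′ to 3′ on the gene's strand, from 250 bases before to 50 bases after a start in RefSeq (GRCm38.p6). Capitals mark GGGCGG, the SP and KLF factor motif, and TATAAA, the TATA box, on either strand.
Tspan8, chr10:115817034-115817333, plus strand: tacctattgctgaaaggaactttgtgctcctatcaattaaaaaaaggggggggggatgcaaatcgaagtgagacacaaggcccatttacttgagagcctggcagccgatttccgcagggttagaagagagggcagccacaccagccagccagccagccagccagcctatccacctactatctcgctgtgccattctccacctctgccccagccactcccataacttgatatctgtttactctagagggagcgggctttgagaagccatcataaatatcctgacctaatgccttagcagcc
Tspan17, chr13:54789155-54789454, plus strand: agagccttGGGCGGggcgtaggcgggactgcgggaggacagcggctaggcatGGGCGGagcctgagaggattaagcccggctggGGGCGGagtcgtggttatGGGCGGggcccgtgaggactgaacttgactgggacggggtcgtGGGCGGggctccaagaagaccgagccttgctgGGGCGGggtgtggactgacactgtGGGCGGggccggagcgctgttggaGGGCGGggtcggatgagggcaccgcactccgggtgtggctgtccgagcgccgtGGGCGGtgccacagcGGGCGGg
Cd81, chr7:143052500-143052799, plus strand: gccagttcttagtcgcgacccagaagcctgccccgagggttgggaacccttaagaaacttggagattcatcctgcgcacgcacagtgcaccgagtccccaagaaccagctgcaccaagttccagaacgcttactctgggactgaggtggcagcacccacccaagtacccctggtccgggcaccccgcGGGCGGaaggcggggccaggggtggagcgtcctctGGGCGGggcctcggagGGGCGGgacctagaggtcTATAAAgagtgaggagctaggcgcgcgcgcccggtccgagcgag
The Tspan8 window has no capitals, the Tspan17 window holds GGGCGG 10 times, and the Cd81 window holds GGGCGG 3 times and TATAAA 1 time. Of 32851 promoter windows of the same length, 35.7% hold GGGCGG and 13.6% hold TATAAA. The G and C content was 51.7% for Tspan8, 72.0% for Tspan17 and 65.7% for Cd81, beside a median of 52.7% over all windows. The observed over expected CpG ratio was 0.253, 0.864 and 0.713 in the same order, beside a median of 0.384.

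RefSeq gave 14 windows for the 10 genes, and 8 windows of 7 genes held GGGCGG. The GATA motif AGATAA and the AP-1 motif TGANTCA were in 0 of the 14 windows, against 11.2% and 7.81% of all windows. Motifs were searched on both strands, and matches that overlap were all counted. The ETS motif CCGGAA was in 2 of them (Cd9 and Cd37) and the RUNX motif TGTGGT in 3 (Cd53 and a pair of Cd82 windows), against 14.9% and 16.8%. A match describes letters and no binding was measured, and a missing match says only that these letters are not in the window.

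Because METTL3 methylates adenosines mostly within GGAC-type motifs, often near the stop codon, a favoured form of it, GGACT, was looked up on the sense strand of 1 coding transcript per gene (GENCODE M21). The match nearest the stop codon is shown for the 4 genes that have one within 200 bases of it, with GGACT in capitals. The share of all genes with a match that near was not computed, so nothing is read from this count. The m6A mark itself was not measured.
Tspan8, chr10:115844110-115844130, plus strand, coding, exon 8 of 9: ttgcttttGGACTggccgtta
Tspan17, chr13:54796380-54796400, plus strand, 3′ UTR, exon 8 of 8: accattggGGACTagactggg
Cd53, chr3:106760622-106760642, minus strand, 3′ UTR, exon 8 of 8: tttgtcatGGACTtcccatat
Cd37, chr7:45233731-45233751, minus strand, 3′ UTR, exon 8 of 8: atggccagGGACTtttgtgcc
Tspan8 held 3 matches in 1381 bases, Tspan17 1 match in 1585 bases, Cd53 2 matches and Cd37 3 matches. Cd82 held 5, Cd9 and Tspan33 held 2 each, and Cd81, Cd63 and Cd151 held 0. Over 18519 coding genes of the table, 88.8% held at least 1 match, with a median of 3 and a median transcript length of 2716 bases. Matches per kb had a median of 1.02 over these genes. Per kb, Cd82 held 2.74, Cd37 2.44, Tspan8 2.17, Cd9 1.63, Cd53 1.15, Tspan33 1.00 and Tspan17 0.631. The 3 genes with no match were among the 5 of highest level in either group. Of the 3 genes farthest apart between the groups, Tspan8 and Tspan17 held matches and Cd81 held 0. Since 88.8% of coding genes hold a match, nothing is read from this.

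The 10 coding sequences were between 657 and 849 bases long, and 7 of the 10 had 8 coding exons. The median coding length of the table's coding genes was 1224 bases.

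All 10 genes were detected in both groups, at 1.44 RPKM or more. In the mutant value 4 were higher and 6 lower, with a median log2 ratio of -0.10, beside 0.02 over the 14539 genes with reads. All log2 ratios are log2((mutant + 1) / (control + 1)), a scale that understates differences of low genes. Tspan8 and Tspan17 differed at least 2-fold on that scale, 2 of 10 genes, and 7.14% of all genes with reads did so (3.67% higher and 3.47% lower in mutants). Since these 2 genes were listed with their values known, nothing is read from that share. Of the other 8 genes, 6 had group values within 1.5 times of each other, and the remaining ones were Cd81 and Cd53.

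**Figure D1:**
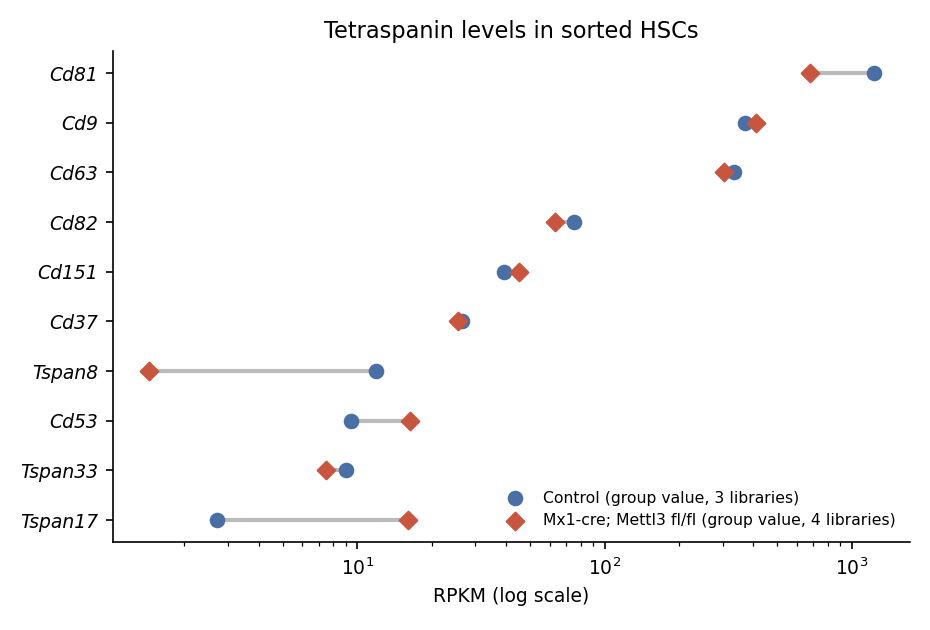
Deposited RPKM of the 10 tetraspanin genes on a log axis, circles for controls (3 libraries) and diamonds for mutants (4 libraries), 1 group value each and no error bars because none can be computed. Tspan8 and Tspan17 are the pairs farthest apart, and Cd81 at 1224 and 677 RPKM is the highest in both groups.

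The surface tetraspanins CD81 and CD9 are close relatives that share partners such as EWI proteins and integrins. Cd81 (NCBI Gene 12520, chromosome 7, 143052750 to 143067930, GRCm38.p6) had 1224 RPKM in controls against 677 in mutants. It ranked 14th of all genes in the control column and 48th in the mutant column. The mutant value was 55.3% of the control value, a log2 ratio of -0.85, short of the 2-fold mark. The noncoding gene R74862 on the opposite strand shares 104 bases of exon with Cd81, 3.61% of its exonic bases, and had 46.3 and 26.9 RPKM; a read in the shared bases cannot be assigned unless the counting used strand, which the labels do not state.

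Cd9 (chromosome 6, 125460266 to 125494760) had 370 RPKM in controls against 409 in mutants, a log2 ratio of 0.15. Cd81 was thus 3.31 times the level of Cd9 in controls and 1.65 times in mutants. Exons of a noncoding gene on the opposite strand, Gm26728, which is not analysed here, cover 10.7% of the exonic bases of Cd9.

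Cd81 carried most of the difference in the summed level. The 10 genes added up to 2103 RPKM in controls against 1564 in mutants, and without Cd81 to 879 and 887 RPKM. Of the summed level of all 31 tetraspanin genes, Cd81 made up 34.4% in controls and 23.6% in mutants, while Cd9 made up 10.4% and 14.3%.

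CD63 sits mainly in late endosomes, lysosomes and exosomes and is carried to the platelet surface when granules fuse. Cd63 (chromosome 10, 128896231 to 128912822) had 335 RPKM in controls against 303 in mutants, a log2 ratio of -0.14. Cd81, Cd9 and Cd63 were the 3 highest members in both groups, and together they made up 91.7% of the 10 genes' summed level in controls and 88.8% in mutants.

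CD82 and CD151 are tetraspanins that bind integrins, CD151 most closely the laminin receptors. Cd82 (chromosome 2, 93419102 to 93462950) had 75.5 RPKM in controls against 63.1 in mutants, a log2 ratio of -0.26. Cd151 (chromosome 7, 141467362 to 141471481) had 39.2 and 45.0 RPKM, a log2 ratio of 0.19. Cd82 was the higher of the pair in both groups, by 1.93 times in controls and 1.40 times in mutants.

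CD37 and CD53 are tetraspanins of white blood cells. Cd37 (chromosome 7, 45233632 to 45239340) was nearly level between the groups, with 26.5 RPKM in controls against 25.5 in mutants. Cd53 (chromosome 3, 106758861 to 106790149) had 9.45 RPKM in controls against 16.3 in mutants, 1.73 times the control value and a log2 ratio of 0.73. The level of Cd37 over that of Cd53 was 2.80 in controls and 1.56 in mutants.

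Mature white blood cells also express these genes, so their markers are given beside Cd53. Of 8 macrophage and monocyte markers, 6 had reads, 4 of them higher and 2 lower in the mutant value, with a median log2 ratio of 0.40. Their summed level was 435 RPKM in controls against 399.9 in mutants, and 28.6 against 111 without Lyz2, which had 406 and 289 RPKM. Most of the sum without Lyz2 was Cd68 in both groups. Cd68 had 26.4 and 108 RPKM, C1qa had 0.212 and 1.38 RPKM, and Cd14 had no reads in controls and 0.790 RPKM in mutants. Ly6c2, the other gene counted as higher, had no reads in controls and 0.0518 RPKM in mutants, near the floor. Lower beside Lyz2 was C1qb, with 1.87 and 0.904 RPKM. The defining receptors Csf1r and Adgre1 had no reads in either group. Of 7 B cell markers, Cd79a, Ms4a1, Pax5 and Ebf1 had no reads, and the 3 with reads were all higher in the mutant value. Cd79b had 132 and 133 RPKM, and Blnk had no reads in controls and 0.662 RPKM in mutants. Of 7 T and NK cell markers, Cd2, Cd3e and Cd3g had no reads, and the summed level was 146 and 73.5 RPKM, mostly Nkg7 at 124 and 62.3 RPKM. Of 5 neutrophil markers with reads, which summed to 14.6 and 7.27 RPKM, 2 were higher and 3 lower. At least 2-fold apart were Camp, with 6.37 and 0.562 RPKM, S100a9, with 1.99 RPKM in controls and no reads in mutants, and Mpo, with 0.0492 and 1.43 RPKM. The part of other cells in the level of Cd53 was not tested.

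The remaining members were low. TSPAN8 is a surface and exosome tetraspanin best known from epithelia. Tspan8 (NCBI Gene 216350, chromosome 10, 115816817 to 115849893) had 11.9 RPKM in controls against 1.44 in mutants, 8.29 times lower in mutants, with a log2 ratio of -2.41. Among all 23038 genes it ranked 33rd by the size of the log2 ratio. It stood 7th of the 10 genes in controls and last in mutants.

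Tspan17 (NCBI Gene 74257, chromosome 13, 54789102 to 54796775) had 2.70 RPKM in controls against 16.0 in mutants. It was 5.93 times higher in mutants, with a log2 ratio of 2.20, and ranked 52nd of all genes by the size of that ratio. In controls Tspan8 was 4.41 times the level of Tspan17, and in mutants Tspan17 was 11.1 times the level of Tspan8.

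The number of reads behind these low values is not known. The deposited values carry a small offset, described with the processing, that amounts to 0.0414 RPKM in controls against 0.0349 in mutants for 1 kb. If that offset stands for 1 read in each library, and with the transcript lengths given above, Tspan8 corresponds to about 396 reads per library in controls and 56.0 in mutants, and Tspan17 to about 102 and 729. Counting error alone would then be 2.90% and 6.68% of the level for Tspan8 and 5.70% and 1.85% for Tspan17 (1 SD). That covers counting only, and reads amplified from 150 cells are not independent molecules. Whether a single animal carries either value cannot be told apart from a shift in all of them.

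**Figure D2:**
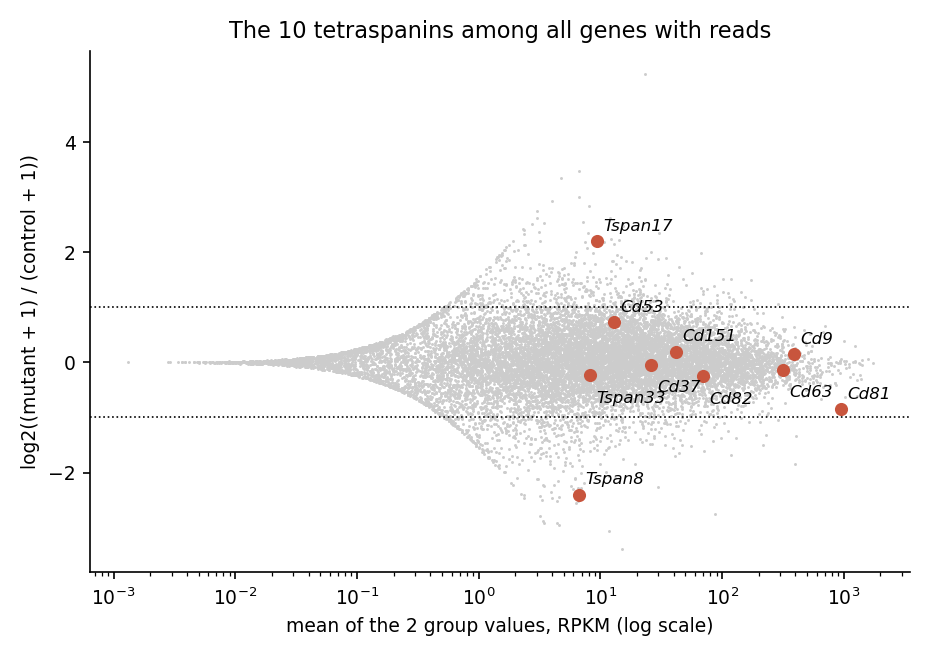
Log2 ratio of mutant to control RPKM (pseudocount 1) against the mean of both group values on a log axis, for the 14539 genes with reads (grey) and the 10 tetraspanins (red); dotted lines mark a 2-fold difference. Tspan17 at 2.20 and Tspan8 at -2.41 lie outside the lines, and the other 8 genes lie inside.

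Tspan33, the other TspanC8 gene among the 10, is known from erythroid and B lineage cells. Tspan33 (chromosome 6, 29694214 to 29718558) had 8.98 RPKM in controls against 7.47 in mutants, a log2 ratio of -0.24. Tspan33 was 3.32 times the level of Tspan17 in controls, and Tspan17 was 2.15 times the level of Tspan33 in mutants. Tspan14 had the highest level of the TspanC8 subgroup in both groups, with 72.1 RPKM in controls against 83.3 in mutants, and Tspan5 had 3.78 and 4.75 RPKM. Tspan10 and Tspan15 had no reads. The 6 genes of the subgroup added up to 87.6 RPKM in controls against 112 in mutants.

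Outside the 10 genes, 16 of the other 21 tetraspanin genes had reads, 6 of them higher and 10 lower in the mutant value, with a median log2 ratio of -0.05. At least 2-fold apart was Tspan12, a partner of Frizzled receptors, with 1.26 and 3.62 RPKM. So was Upk1a, a uroplakin of the bladder lining, with 2.60 RPKM in controls and no reads in mutants. Of all genes with reads, 7.14% were that far apart. Tspan6 came close, with 53.7 RPKM in controls against 27.5 in mutants, and Tspan2 had 0.251 and 1.00 RPKM. Several of these genes were as abundant in HSCs as the described ones. Tspan4 had 503 and 483 RPKM, second to Cd81 in both groups, Tspan32, a tetraspanin of blood cells and platelets, had 292 and 301 RPKM, Tspan13 had 234 and 168 RPKM, Tspan31 had 171 and 134 RPKM and Tspan3 had 112 and 93.4 RPKM. Rom1 and Tspan9 stayed low, at 3.38 and 3.58 RPKM and at 1.62 and 0.883 RPKM.

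**Figure D3:**
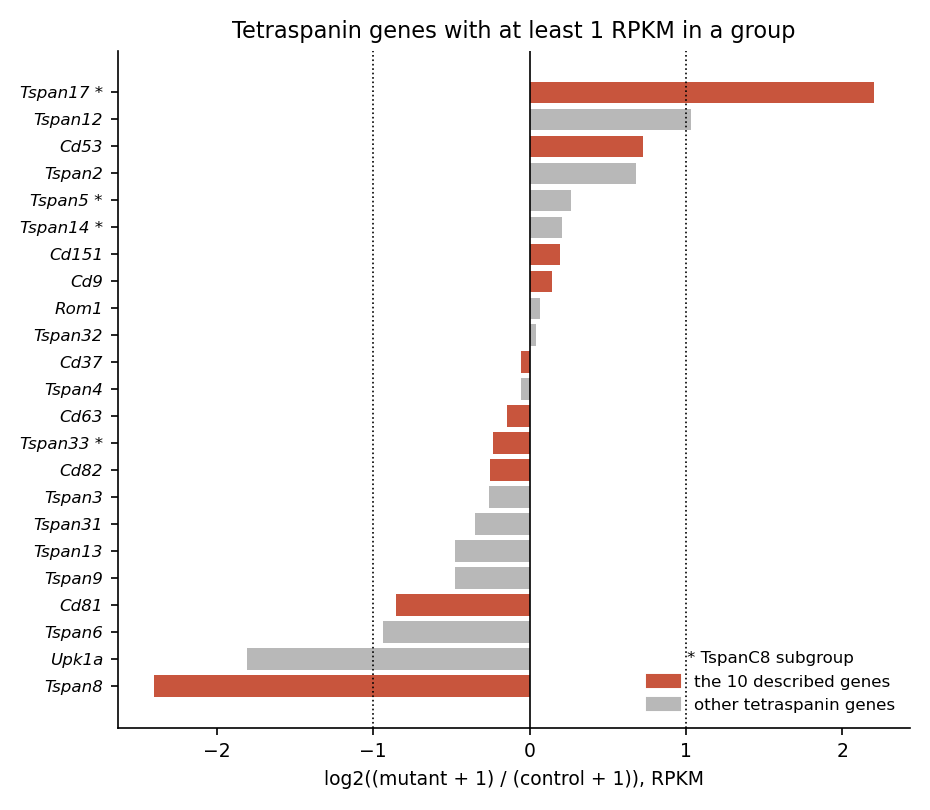
Log2 ratio of mutant to control RPKM (pseudocount 1) for the 23 tetraspanin genes with at least 1 RPKM in a group, the 10 described genes in red, other family members in grey, and asterisks on the TspanC8 subgroup; dotted lines mark a 2-fold difference. Tspan17 and Tspan12 lie above the upper line, and Upk1a and Tspan8 below the lower one.

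Genes whose proteins meet tetraspanins were read from 4 lists. The comparison for these lists and for the platelet markers below is all 14539 genes with reads. Of those, 7649 were higher and 6890 lower in the mutant value, and 7.14% were at least 2-fold apart. Among 14 integrin genes with reads, 11 were higher and 3 lower in the mutant value, with a median log2 ratio of 0.24, and 1 was at least 2-fold apart. That gene was Itgb5, with 0.188 and 2.78 RPKM. The most abundant integrins were Itgb1, the shared beta subunit of the laminin and fibronectin receptors that CD151, CD9 and CD81 bind, with 33.3 and 51.5 RPKM, and Itgb2, with 30.5 and 44.8 RPKM.

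Of 15 other direct partners with reads, 8 were higher and 7 lower, with a median of 0.01. Pi4k2a, a phosphoinositide kinase that associates with CD9, CD81, CD151 and CD63, had 5.36 RPKM in controls against 12.9 in mutants. Cd36, a scavenger receptor of platelets and macrophages, had 1.44 RPKM in controls and 0.0138 in mutants, where it is near the floor. The interferon-induced membrane protein genes Ifitm1 and Ifitm3 were the most abundant, with 948 and 730 RPKM and with 866 and 874 RPKM.

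Adam10, the protease that TspanC8 proteins escort, had 36.2 RPKM in controls against 56.5 in mutants, the highest of its list, and App, an ADAM10 substrate, had 13.2 and 11.7 RPKM. Of the 12 ADAM proteases and ADAM10 substrates with reads, 4 were higher and 8 lower, and 0 were 2-fold apart on the pseudocount scale. Without a pseudocount, 13 genes of the 4 partner lists were 2-fold apart, genes of this list among them. With it the count was 4. Of 16 late endosome, lysosome and exosome genes, 10 were higher and 6 lower, with a median of 0.07. Hps4, a subunit of a complex that builds platelet dense granules, was the 1 gene that was 2-fold apart, with 3.92 and 11.4 RPKM. Sdcbp, the exosome adaptor syntenin that binds CD63, had 479 and 446 RPKM, and Lamp1 had 162 and 225 RPKM.

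Platelet and megakaryocyte markers had a summed level of 310 RPKM in controls against 332 in mutants, and 9 of 13 with reads were higher. Without Selp, which encodes P-selectin and had 20.05 and 69.2 RPKM, the sum was 289.6 against 262.8 RPKM. At least 2-fold lower in mutants were Mmrn1, with 28.3 and 1.81 RPKM, Clec1b, with 6.35 and 0.297 RPKM, and Treml1, with 24.1 and 10.2 RPKM. Pf4 and Gp9, the highest by the mean of both groups, had 119 and 127 RPKM and 56.0 and 49.9 RPKM, and Gp6 had no reads. Of the 13 markers, 7 lay within 1.5 times of the control value, while 3 were farther above it and 3 farther below. The share of all genes within 1.5 times was not computed, so nothing is read from this count. The part of platelet-primed cells in the tetraspanin levels was not tested.

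**Figure D4:**
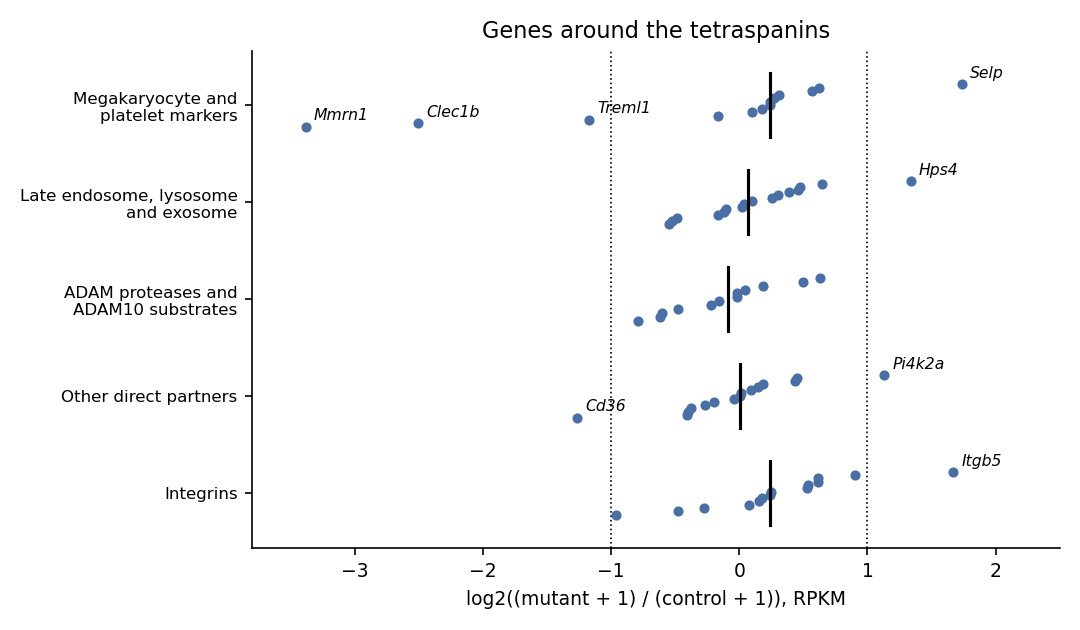
Log2 ratio of mutant to control RPKM (pseudocount 1) for genes with reads in 4 partner lists and the megakaryocyte and platelet markers, 1 point per gene, with the list's median as a vertical bar and dotted lines at a 2-fold difference; genes outside the lines are named. The integrin median lies at 0.24 and the ADAM list median at -0.09.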

How the data were processed

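The authors deposited 1 RPKM value per gene for each group, per the file headers; single-library values were not used here. The build mm10 and the tools Picard and edgeR are named in the submitters' processing notes, without roles or versions. The aligner, annotation, use of strand and way of combining libraries are not stated there. An offset was found from the 8499 genes with the same mutant/control ratio (0.841, relative tolerance 1e-06), whose values are a constant divided by a whole number of bases; these were read as genes without reads. If it is 1 read per library, the typical library held 24.1 M reads in controls and 28.7 M in mutants (M, megareads). From the deposited RPKM, log2 ratios were computed with a pseudocount of 1, and genes were counted at 2-fold, a rule of size (Python 3.11.15, pandas 2.3.3; tested on simulated data). No fit across genes was possible with 1 value per group. The members and gene lists were chosen with earlier results of these data known. Named genes are the 10 members, other tetraspanins with at least 1 RPKM in a group, and, from each partner list, genes 2-fold apart and the 2 most abundant; marker genes are named where they bear on a member. Lists held 33 tetraspanins, of which Tspan16 and Tspan19 are not analysed here. The 10 members matched RefSeq (GRCm38.p6) by NCBI Gene identifier. Coding transcripts were the APPRIS principal ones of GENCODE M21, taken by symbol, the longest coding sequence deciding. Protein sequences were not used here.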

Additional observations from a re-analysis of the deposited data

How the results depend on the processing

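Of 7 alternatives, none changed the sign of a member or its side of the 2-fold mark. The alternatives included pseudocounts of 0.1, 5 and none, and both rescalings of the columns. The others were a minimum of 1 RPKM and subtraction of the offset by GENCODE exon length. A pseudocount cannot change a sign, and every member passed the minimum of 1 RPKM with its value unchanged. Only the rescalings and the subtraction could therefore have changed a sign. Of the 70 member values, 3 moved by over 1.5 times: Tspan8 was at -1.39 and Tspan17 at 1.45 with a pseudocount of 5, and Tspan8 was at -3.05 without one. With a pseudocount of 0.1, 5 and none, genes 2-fold apart numbered 2855 (1508 higher, 1347 lower), 236 (125 and 111) and 3655 (1981 and 1674) in all, and 11, 0 and 13 in the partner lists. Tetraspanin genes 2-fold apart were 2 with a pseudocount of 5 and 7 with none, beside 4. These counts move because a smaller pseudocount enlarges the differences of low genes. The median ratio of genes with at least 1 RPKM in both groups was 0.02 on the log2 scale. No paired analysis was possible because each column holds 1 value for a whole group, and leaving out replicates and limma, planned in case of single-library columns, were not run for the same reason.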

Other observations

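Genes beside the 4 members farthest apart were read after the values were seen, as the 3 nearest coding genes of the table on each side (RefSeq). Of these 24 neighbours, 16 had reads, and 4 of the 16 were at least 2-fold apart on the pseudocount scale, beside 7.14% of all genes with reads; nothing is read from that share, since the 4 members were picked for lying apart. Cd81 lies between Tspan32, 33.3 kb away, and Tssc4, 0.486 kb away. While Cd81 was at 55.3% of its control level, Tspan32 had 292 RPKM in controls against 301 in mutants, and Tssc4 had 90.8 and 93.6 RPKM. Farther out on the same chromosome, Th had 4.33 and 1.05 RPKM and Trpm5 had 2.12 and 0.00713 RPKM. The mutant value of Trpm5 is near the floor and matches the mutant offset for a whole number of bases, as values without reads do.

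The neighbour nearest to Tspan17, Eif4e1b at 0.643 kb, had no reads, and Hk3, the hexokinase gene of myeloid cells 209 kb away, had 6.52 RPKM in controls against 25.97 in mutants. No neighbour of Tspan8 was 2-fold apart, and Zfc3h1 was the only one of its 6 neighbours above 1 RPKM, with 2.47 and 3.63 RPKM. Beside Cd53, the potassium channel gene Kcna3, 246 kb away, had 1.31 and 4.80 RPKM, and Dram2 had 36.8 and 40.1 RPKM.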
